A study of Mus musculus with 4 samples.

Results

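The comparison described here sets the small intestine against the colon of the mouse in the pair of libraries made from RNA that had been depleted of ribosomal RNA and fragmented before adaptors were ligated. These are 2 of the 4 libraries of the series, chosen by the tissue and library selection given in their labels, and the remaining 2 are cDNA fragmented libraries from polyadenylated RNA of the same tissues. The mice were C57BL/6, with no treatment named, and 9 to 10 weeks old, with the unit of age taken from the study's methods, since the labels give only the numbers. Frozen total tissue was used, which the study's methods describe as jejunum for small intestine (SI) and distal colon for colon, so that the samples hold muscle, nerve and immune cells besides the epithelium. The labels name the SOLiD V2 Whole Transcriptome Analysis Kit and ribosomal RNA depletion for both libraries, whereas the study's methods describe enrichment of polyadenylated RNA for this kit, and the 2 descriptions could not be reconciled. The read totals that the study gives for its RNA fragmented libraries also differ from those of the deposited files, which are the ones used here. There is 1 library per tissue, and the labels give neither the number of mice behind it nor whether both tissues came from the same mice, while the study writes of the same individuals for both tissues without assigning mice to libraries. No test between tissues is therefore possible, and every interval below covers counting error only and not the differences between mice. Reads from amplified libraries are not independent molecules, which these intervals do not take into account.

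The small intestine absorbs sugars, peptides, fats and minerals through enterocytes whose brush border carries digestive enzymes and transporters, and Paneth cells at the base of its crypts secrete antimicrobial peptides. The colon recovers water, sodium and the short-chain fatty acids made by bacteria, exchanges chloride for bicarbonate, and is covered by mucus from abundant goblet cells. Position along the gut is set during development by homeobox factors such as those of the Hox and Cdx families and is kept in the adult epithelium in part by GATA factors.

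Of 36419942 reads for SI and 37466674 for colon, 2035386 (5.59%) and 3478387 (9.28%) were placed uniquely on exons or junctions. Reads lay in the orientation of the gene in 98.5% and 98.7% of cases, so only sense reads were used. Lars2, on which 277915 reads of SI and 186259 of colon were piled at 348 and 368 start points, was left out of the totals. This left 1709845 and 3213207 sense reads on 20800 genes. Levels are given as RPKM, reads per kilobase of exon and per 1000000 of these reads. A gene was measured when it had at least 20 reads over both libraries, and it was called higher in a tissue when its RPKM was at least 3 times that of the other tissue plus a penalty of 1 RPKM.

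Among 11738 genes measured, 590 were called higher in SI and 852 higher in colon, which is 5.03% and 7.26% of genes measured and is the background for every count given below. The counting interval of the fold lay entirely above 3 for 496 of the first and 540 of the second. The median log2 ratio of colon to SI, calculated after adding 1 RPKM to both, was 0.26 over all genes measured. Scaling by the median of ratios in place of the totals moves this median to 0.04 and changes the counts to 756 and 636. Without the added 1 RPKM that scaling shifts a log2 ratio by 0.24 towards SI, and with it genes of low level move less. Ratios of lists are to be read against the median of 0.26. A gene that is low in 1 tissue reaches 20 reads only through the other, so counts and medians over measured members describe those members and not the whole of a list. In 17 genes at least 20 reads in SI stood against none in colon, and the reverse was seen in 75 genes. Both counts rest on reads not scaled for depth, with 1709845 sense reads in SI and 3213207 in colon. A gene reaches 20 reads more easily in colon and lacks reads more easily in SI. The counts of 17 and 75 therefore cannot be compared between the tissues. The plot of levels shows the genes called higher in SI and those called higher in colon on either side of the diagonal.

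**Figure D1:**
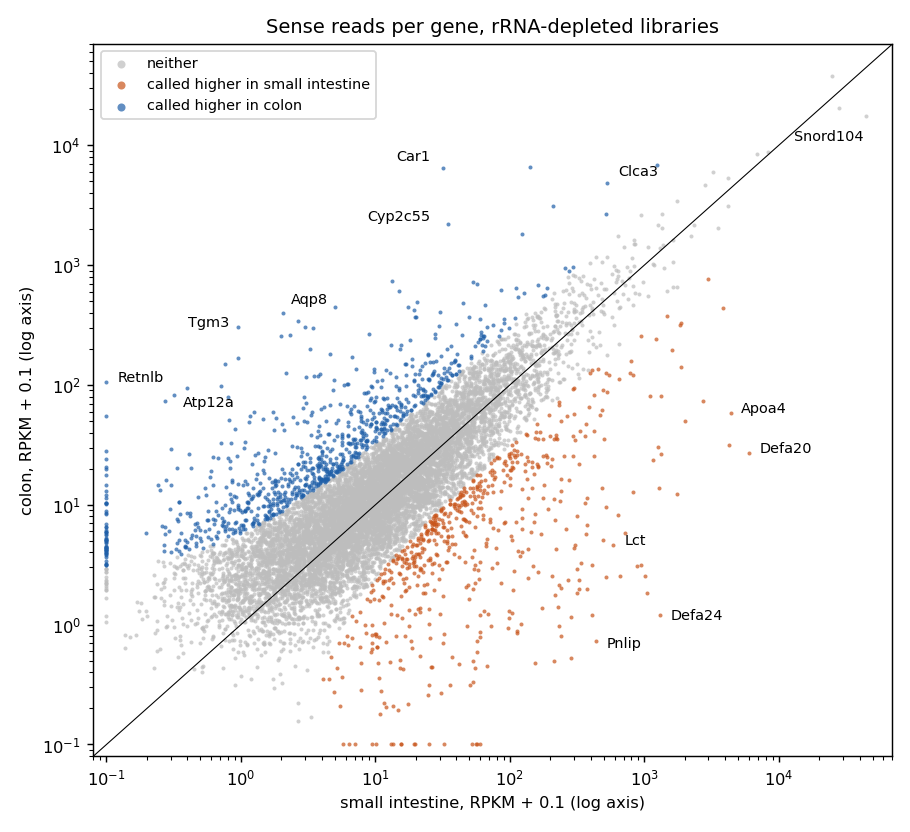
RPKM of each of the 11738 genes measured in small intestine (x axis) and colon (y axis), both on log axes after adding 0.1 RPKM. Colored points are the 590 genes called higher in small intestine and the 852 called higher in colon, the line marks equal levels, and genes without reads in a tissue lie on the edge of the plot.

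The highest levels in both tissues belonged to small nucleolar RNAs (snoRNAs), short RNAs without a poly(A) tail that guide the modification of ribosomal RNA. The 4 shown here are C/D box snoRNAs from among those with the highest levels in both libraries. They are written 5′ to 3′ from the mm9 genome, with the C box TGATGA near the 5′ end and the D box CTGA near the 3′ end in capitals.
Snord104: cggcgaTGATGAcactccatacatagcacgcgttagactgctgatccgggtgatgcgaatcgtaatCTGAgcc
AC102570.1: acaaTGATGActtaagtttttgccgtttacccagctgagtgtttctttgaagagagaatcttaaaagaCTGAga
Snord82: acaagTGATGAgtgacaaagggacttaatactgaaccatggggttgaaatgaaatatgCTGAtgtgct
Snord32a: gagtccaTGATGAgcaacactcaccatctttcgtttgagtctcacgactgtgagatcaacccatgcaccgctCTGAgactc
Snord104 lies at chr11:106362305-106362377 on the plus strand, AC102570.1 at chr1:9932551-9932624 on the minus strand, Snord82 at chr1:88252835-88252902 on the minus strand, and Snord32a at chr7:52382753-52382833 on the minus strand. Snord104 had 5581 and 4099 reads, a level 2.56-fold higher in SI, and 58.1% and 67.0% of them began at base 1 of the sequence above. AC102570.1 had 3530 and 4872 reads, a level 1.36-fold higher in SI, and here the most used start was base 32 in both libraries. For Snord82, with 960 and 1916 reads, and Snord32a, with 952 and 2187, the most used starts were bases 1 and 2. The most used start of each of the 4 snoRNAs was thus the same base in both tissues, and none of the 4 was called higher in either. Over the 52 snoRNAs measured, 3 were called higher in SI and 2 in colon, with a median log2 ratio of 0.11. Those higher in SI were Snord22, with 262 and 97 reads, Snord66, with 180 and 59, and Snord45b, with 22 and 13, and those higher in colon were Snora21, with 64 and 396 reads, and Snord72, with 10 and 57. All snoRNAs together took 1.15% of the reads of SI and 1.07% of those of colon.

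Genes of digestion at the brush border were called higher in SI throughout the list of disaccharidases and phosphatases. All 5 measured members were called, with a median log2 ratio of -6.46. Lactase (Lct), which splits milk sugar, had 6195 reads or 588 RPKM in SI and 89 reads or 4.49 RPKM in colon, a 131-fold difference with a counting interval of 106 to 163. Sucrase-isomaltase (Sis) stood at 1282 RPKM against 13.6 RPKM. Trehalase (Treh) had 760 reads in SI and 11 in colon. The phosphatases Alpi and Akp3, which remove phosphate from bacterial lipopolysaccharide and from nucleotides at the cell surface, had 1947 and 1173 reads in SI and 102 and 6 in colon. Akp3 was 367-fold higher in SI with an interval of 168 to 1003. In the polyadenylated pair Akp3 reached only 0.321 RPKM in SI and 0.0243 RPKM in colon and was not called.

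Peptidases of the same membrane were called higher in SI in 11 of 13 measured genes, with a median log2 ratio of -4.39, and none was called higher in colon. Aminopeptidase N (Anpep) had 10156 reads in SI and 134 in colon, a level 142-fold higher. Ace, which cuts dipeptides from peptide ends, stood at 422 RPKM against 25.4 RPKM. The glutamyl aminopeptidase Enpep differed 98.1-fold, from 493 RPKM in SI to 5.03 RPKM in colon. Mep1a, the alpha subunit of the secreted and membrane-bound protease meprin, went the other way without being called, with 120 RPKM in SI and 226 RPKM in colon.

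Sugar transport and fructose metabolism showed the same direction, as 10 of 12 measured genes were called higher in SI and 1 higher in colon, with a median log2 ratio of -4.09. The sodium-glucose cotransporter Slc5a1 had 8956 reads or 1332 RPKM in SI and 1028 reads or 81.4 RPKM in colon. Slc2a2, by which glucose and fructose leave the cell, had 1019 reads against 17. Khk, which phosphorylates fructose, stood at 234 RPKM in SI and at 10.6 RPKM in colon. Pck1, a gluconeogenic enzyme, had nearly equal levels of 93.0 RPKM and 98.7 RPKM, with an interval of the colon to SI ratio of 0.943 to 1.20. The exception was Slc2a1, the widely expressed glucose transporter that imports glucose from blood, with 12 reads in SI and 229 in colon, 10.2-fold higher in colon.

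Transporters of peptides and amino acids were called higher in SI in 10 of 13 measured genes and higher in colon in 2, with a median log2 ratio of -3.10. The peptide transporter Slc15a1 stood at 303 RPKM in SI and 34.4 RPKM in colon, and the neutral amino acid transporter Slc6a19 at 315 RPKM and 2.81 RPKM. The aromatic amino acid transporter Slc16a10 was 26.0-fold higher in SI. Slc36a1, a proton-coupled carrier, was close to even at 46.7 RPKM and 55.6 RPKM. Of the 2 genes called higher in colon, Slc6a14, a carrier of neutral and basic amino acids, had 29 reads in SI and 4931 in colon, a 90.5-fold difference with an interval of 62.9 to 135. The glutamine carrier Slc1a5 had 75 and 513 reads.

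Fat uptake and export were called higher in SI as well. For fatty acid uptake and re-esterification the counts were 9 higher in SI and 1 higher in colon of 13 measured, and for chylomicron assembly 9 and 0 of 12, with medians of -3.14 and -4.90. Fabp2 and Fabp1 bind fatty acids in the enterocyte, and both were called higher in SI by very unequal folds. Fabp2 had 4258 reads in SI and 904 in colon, an 8.85-fold difference, and Fabp1 had 601 reads against 9, a 125-fold difference with an interval of 65.7 to 276. Mogat2, which rebuilds triglyceride from monoglyceride, stood at 373 RPKM against 6.67 RPKM. Apob, the structural protein of the chylomicron, took 27780 reads in SI and 1056 in colon. Apoa4 and Apoa1, apolipoproteins of the same particle, reached 4376 and 4295 RPKM in SI against 58.7 and 31.3 RPKM in colon, the highest levels of protein-coding genes in SI after the α-defensin Defa20. Mttp, which loads lipid onto Apob, had 3920 reads in SI and 34 in colon. On the colon side stood Acsl3, an acyl-CoA synthetase, with 72 and 1343 reads, while the lipid droplet protein Plin2 had 41.5 RPKM in SI and 114 RPKM in colon and was not called.

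Sterol handling split by function. Of 9 genes of cholesterol and bile acid transport, 5 were called higher in SI and none in colon, while of 20 enzymes and regulators of cholesterol synthesis 1 was called higher in SI and the median was 0.25, close to that of all genes. Npc1l1, which takes up cholesterol from the gut lumen, had 1769 reads in SI and 19 in colon, and Abcg5, a subunit of the pump that returns sterols to the lumen, had 448 and 29. Its partner Abcg8 had 373 reads and 9, Soat2, which esterifies cholesterol, 173 and 6, and Osta, a subunit of the basolateral bile acid exporter, 284 and 142. The synthesis gene called was Sc5d, a sterol desaturase, with 106 and 51 reads. The ileal bile acid carrier Slc10a2 was not called, with 58.5 RPKM in SI and 110 RPKM in colon, and neither was the bile acid receptor Nr1h4 with 23.0 RPKM and 46.6 RPKM.

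**Figure D2:**
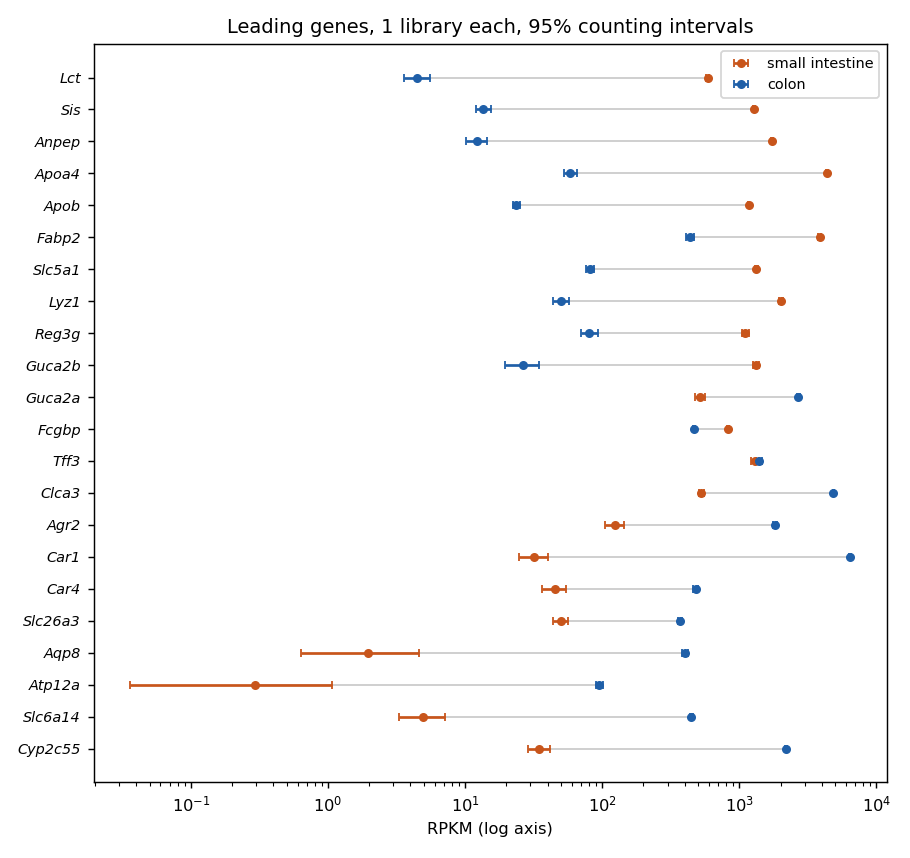
RPKM on a log axis of 22 genes named in the text in the small intestine and the colon library, each point with its exact Poisson counting interval at the 95% level. The 10 genes from Lct to Guca2b are higher in small intestine. Fcgbp is 1.78-fold higher there without being called, and Tff3 differs little. The genes from Clca3 downwards together with Guca2a are higher in colon.

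Paneth cell antimicrobials were called higher in SI in 14 of 15 measured genes with a median log2 ratio of -5.29, and the list took 0.785% of the reads of SI and 0.0323% of those of colon. The 14 include Clps, the cofactor of pancreatic lipase, which is not an antimicrobial, with 115 and 18 reads, and it was not called in the polyadenylated pair. The α-defensin Defa20 had 4366 reads in SI and 37 in colon, a 222-fold difference with an interval of 161 to 315. Defa5, of the same family, had 634 reads in SI and 4 in colon. Defa24 had the largest penalised ratio of all genes, with 626 reads against 1, but its interval ran from 210 to 46539. α-Defensin genes are close copies of each other, so a uniquely placed read comes only from where they differ and the share of each member is uncertain. Among genes outside the family, lysozyme 1 (Lyz1) stood at 2008 RPKM against 50.2 RPKM, the lectin Itln1 at 822 RPKM against 12.6 RPKM, and Mmp7, the protease that activates pro-defensins, had 81 reads against 8. The 1 gene not called was Ang4, a bactericidal ribonuclease made by Paneth and goblet cells, with 283 RPKM in SI and 315 RPKM in colon.

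Secreted Reg lectins, which bind bacterial cell walls or act as growth factors, were called higher in SI in 4 of 5 measured genes, with a median log2 ratio of -3.76. Reg3g had 1110 RPKM in SI and 80.8 RPKM in colon, Reg3b 830 RPKM and 120 RPKM. Reg1, which is also made in large amounts by the pancreas, had 871 reads against 6, and Reg3a 98 against 3. Reg4, known from enteroendocrine and goblet-like cells of the colon, had 28.1 RPKM in SI and 57.0 RPKM in colon and was not called.

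Genes of pancreatic acinar cells, which make the digestive enzymes of pancreatic juice and are not part of the gut wall, were among those with the largest folds in favor of SI. Of 15 measured, 13 were called higher in SI and 1 higher in colon, with a median log2 ratio of -6.85, and the RPKM summed over the list was 4858 in SI and 557 in colon. Chymotrypsinogen (Ctrb1) had 1595 reads in SI and 5 in colon, pancreatic lipase (Pnlip) 1110 and 3, the elastase Cela2a 1312 and 8, and the lipase Cel 986 and 7. The carboxypeptidases Cpa1 and Cpb1 stood at 213 and 377 RPKM in SI and 0.394 and 1.87 RPKM in colon. The elastase Cela1, also known from gut epithelium, was even in reads, 1116 and 1119, or 1.87-fold higher in SI as RPKM, and the zymogen granule protein Sycn was 3.94-fold higher in colon, with 55 and 407 reads. In the polyadenylated pair the direction was the opposite, as 14 of the same 15 genes were called higher in colon and none in SI, with a median log2 ratio of 4.64. There Ctrb1 stood at 0.152 RPKM in SI and 81.7 RPKM in colon, and Pnlip had no read in SI and 61.3 RPKM in colon. How far acinar RNA enters the values of Reg1 and of other genes shared with the pancreas was not tested. Leaving the list out of the genes and the totals gives 584 genes higher in SI and 844 higher in colon.

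Detoxification and nitrogen metabolism gave mixed pictures. Of 16 cytochrome P450 genes, 9 were called higher in SI and 1 in colon, with a median log2 ratio of -2.47. Cyp3a11 and Cyp3a13, oxidases of many drugs and steroids, stood at 207 and 470 RPKM in SI and at 2.43 and 55.9 RPKM in colon, and Cyp4v3 and Cyp4f14, which act on fatty acids and related lipids, were 35.4-fold and 7.68-fold higher in SI. The single P450 gene on the colon side was Cyp2c55 with 118 reads in SI and 14034 in colon, a 63.3-fold difference with an interval of 52.8 to 76.5. Cps1, which makes carbamoyl phosphate for citrulline synthesis, had 1741 reads in SI and 111 in colon, and 4 of the 9 genes of the urea, arginine and polyamine list were called higher in SI and 1 in colon. The others higher in SI were Otc, Nags and Arg2, with 505, 73 and 440 reads in SI and 158, 14 and 48 in colon, and argininosuccinate lyase (Asl) was 5.32-fold higher in colon with 6 and 60 reads. Rbp2, which carries retinol in enterocytes, was 42.2-fold higher in SI, while Aldh1a1, which makes retinoic acid, was called higher in colon with 51.2 RPKM and 174 RPKM. Rdh7 and Bcmo1, which oxidize retinol and split beta-carotene, had 307 and 50 reads in SI and 4 and 1 in colon.

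Antigen presentation by MHC class II was called higher in SI in all 7 measured genes, with a median log2 ratio of -2.33 and a narrow range of -2.55 to -1.91. The invariant chain Cd74 had 4480 reads or 1852 RPKM in SI and 1437 reads or 316 RPKM in colon. H2-Aa and H2-Ab1, the chains of an MHC class II molecule, were 5.05-fold and 5.79-fold higher, and their transactivator Ciita 5.33-fold higher. Genes of B and plasma cells did not share this, as none of 9 was called higher in SI and 1 was called higher in colon, Cd79b of the B cell receptor, with 3 and 30 reads. Igj, the chain that joins secreted antibodies, had 413 RPKM in SI and 389 RPKM in colon, but 3371 RPKM and 347 RPKM in the polyadenylated pair, where it was called higher in SI. Among 7 genes of T cells, 2 were called higher in SI, with a median of -1.49, and these were the granzymes Gzma, with 120 and 9 reads, and Gzmb, with 41 and 13. Cd8a had 38 and 19 reads and was not called. In the polyadenylated pair 5 of the 7, Cd8a among them, were called higher in SI, with a median of -2.45. In the rRNA-depleted pair Ccl25, the chemokine that draws T cells to the small intestine, had 537 reads in SI and 15 in colon. Ccl5 had 60 and 8. Fewer cells of a type and less RNA per cell cannot be told apart in RNA of whole tissue, here or for any cell type below.

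On the colon side, carbonic anhydrases included the gene with the largest penalised ratio, Car1. Of 9 measured, 5 were called higher in colon and none in SI, with a median log2 ratio of 2.06. Car1, which interconverts carbon dioxide and bicarbonate in the cytosol, had 68 reads or 31.9 RPKM in SI and 25678 reads or 6403 RPKM in colon, a 201-fold difference with an interval of 158 to 259. Car2, another cytosolic enzyme, stood at 19.9 RPKM against 369 RPKM, and Car4, anchored at the outer face of the membrane, at 45.1 RPKM against 480 RPKM. Car12 and Car8, a membrane form and a form without enzyme activity, had 353 and 364 reads in colon and 17 and 39 in SI.

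Salt and water transport followed by single genes more than as a group. Of 10 genes of the epithelial sodium channel, the aldosterone response and the sodium and proton pumps, 5 were called higher in colon and 1 in SI, with a median log2 ratio of 1.74. Atp12a, the colonic proton-potassium pump, had 2 reads in SI and 1207 in colon, a ratio of 321 with an interval of 88.7 to 2655. Scnn1b, a subunit of the sodium channel, had no read in SI and 92 in colon, at least 16.3-fold higher against a floor of 3 reads. The subunit Scnn1a had 24 and 373 reads, and Hsd11b2, which protects the mineralocorticoid receptor from glucocorticoids, 19 and 599. The mineralocorticoid receptor Nr3c2 was 3.18-fold higher in colon, while the kinase Sgk1, which aldosterone induces, was 4.15-fold higher in SI. The subunit Atp1b1 of the sodium pump stood at 1412 RPKM in SI and 941 RPKM in colon and was not called. Among exchangers, the chloride-bicarbonate exchanger Slc26a3 had 224 reads in SI and 3107 in colon, 7.38-fold higher in colon. Another anion exchanger, Slc26a6, ran the other way with 1193 and 42 reads, 53.4-fold higher in SI, as did Slc9a3r1, a scaffold of brush border transporters, with 541 RPKM in SI and 122 RPKM in colon. Kcne3, a potassium channel subunit, was 4.67-fold higher in colon with 46 and 404 reads. Of 6 water channels measured, 2 were called higher in each tissue. Aqp8 had 5 reads and 1916 reads, 204-fold higher in colon with an interval of 87.2 to 629, and Aqp4 was 26.0-fold higher in colon. Aqp7, which also passes glycerol, was 19.2-fold higher in SI, and Aqp3, with 30 reads in SI and none in colon, at least 18.8-fold higher, while Aqp1 of blood vessels differed only 1.47-fold.

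The guanylin peptides, which share the receptor Gucy2c and drive chloride and water secretion, divided between the tissues. Guca2a had 518 RPKM in SI and 2692 RPKM in colon, 5.20-fold higher in colon, whereas Guca2b had 1326 RPKM in SI and 26.5 RPKM in colon, 50.1-fold higher in SI. Gucy2c itself differed 1.27-fold, from 127 RPKM in SI to 99.9 RPKM in colon.

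Handling of short-chain fatty acids and ketone bodies was called higher in colon in 4 of 10 measured genes and higher in SI in 1, with a median log2 ratio of 1.46. The monocarboxylate carriers Slc16a1 and Slc5a8 were 4.12-fold and 3.47-fold higher in colon, and Ffar2, a receptor for short-chain fatty acids, had 10 and 161 reads. A relative of Slc5a8, the low-affinity lactate carrier Slc5a12, stood apart with 976 reads in SI and 30 in colon, 61.1-fold higher in SI. General fatty acid oxidation was not part of this, as 1 of 16 genes was called higher in colon and none in SI. That gene was Pparg, a nuclear receptor for fatty acids, with 21 and 314 reads, while Cpt1a, which admits fatty acids to mitochondria, had 65.7 RPKM in SI and 111 RPKM in colon.

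Goblet cell genes were called higher in colon in 7 of 12 measured and higher in SI in 1, with a median log2 ratio of 2.75, but of the 6 with most reads only Clca3 and Agr2 were called. Clca3, a secreted mucus component, had 2650 reads in SI and 45890 in colon, 9.21-fold higher in colon. Agr2, which folds mucins, was 14.7-fold higher in colon, with 161 and 4454 reads, and Retnlb, a secreted bactericidal protein, had no read in SI and 237 in colon, at least 42.0-fold higher. In contrast the mucus proteins Zg16 and Fcgbp were not called. Zg16 stood at 2350 RPKM in SI and 2143 RPKM in colon, and Fcgbp at 830 RPKM and 465 RPKM, 1.78-fold higher in SI. In the polyadenylated pair both were higher in colon without being called. There Zg16 had 6084 RPKM in SI and 9975 RPKM in colon, and Fcgbp 58.3 RPKM and 103 RPKM. In the rRNA-depleted pair the trefoil peptide Tff3 had an interval of the colon to SI ratio of 0.994 to 1.16. Spink4 was 2.57-fold higher in colon without being called, with 277 RPKM in SI and 713 RPKM in colon. Tff2, a trefoil peptide of the stomach and duodenum, had 20 reads in SI and 7 in colon and was the gene called higher in SI, while in the polyadenylated pair it had 1 read in SI and 53 in colon and was called higher in colon. The membrane mucin Muc13 was even, at 766 RPKM and 778 RPKM. Muc2, sought as a goblet cell marker, was not matched to a gene and has no value here.

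Enteroendocrine hormones included 4 of 12 genes called higher in colon and none in SI, with a median log2 ratio of 0.90. Insl5, an insulin-like peptide of colonic L cells, had 1 read in SI and 366 in colon, a ratio of 195 with an interval of 34.7 to 7713. Pyy and Gcg, which encode peptide YY and the glucagon-like peptides, were 10.2-fold and 5.71-fold higher in colon, and Tac1, the precursor of substance P, had 2 and 23 reads. The granin genes Chga and Chgb, shared by most endocrine cells, were not called, with 39.2 RPKM in SI and 73.8 RPKM in colon for Chga and 24.8 RPKM and 20.2 RPKM for Chgb. Cck, made mainly in the upper gut, had 13 reads in SI and 7 in colon. The upper gut hormones Gip and Ghrl missed the minimum of reads, with 18 and 6 reads in SI and none in colon, and both were called higher in SI in the polyadenylated pair. None of the 6 tuft cell genes measured was called.

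Further genes led the ratios in favor of colon outside these groups. The transglutaminase Tgm3, which crosslinks proteins, had 6 reads in SI and 4016 in colon, a 356-fold difference with an interval of 163 to 971. Hao2, a peroxisomal oxidase of hydroxy acids, had 9 and 2245 reads, and Nov, a matricellular protein, 9 and 1995. The acute phase protein Saa1 had 3 and 591 reads, with 49.1% of the colon reads at 1 start point. The clone-named genes 2210415F13Rik and 1810030J14Rik had the highest RPKM of all protein-coding genes in colon, 6841 and 6628 RPKM, against 1245 and 140 RPKM in SI. On the SI side, Gm766 likewise had 720 reads against 2 in colon. On the colon side, Sval1 and 1110032A04Rik, had 2 reads each in SI and 511 and 856 in colon.

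Iron, calcium and junction genes differed by a few members each. Of 11 genes of iron absorption and storage, 1 was called higher in SI and 2 higher in colon. Slc46a1, a proton-coupled carrier of folate and heme, had 238 reads in SI and 45 in colon, 9.94-fold higher in SI, while Hfe, a regulator of iron uptake, had 11 and 123 and the heme-degrading enzyme Hmox1 had 1 and 35. The storage protein Fth1 was not called, with 2182 reads in SI and 1682 in colon. Of 4 calcium genes, the sodium-calcium exchanger Slc8a1 was called higher in colon, with 63 and 723 reads, and the vitamin D receptor Vdr was even at 219 RPKM and 217 RPKM. Among 10 claudins, which seal the space between epithelial cells, 3 were called higher in colon and 1 in SI. Cldn8, a barrier to sodium, had 8 reads in SI and 320 in colon, a 21.3-fold difference, and Cldn2 and Cldn23 were 3.09-fold and 3.35-fold higher in colon. Cldn25 was 3.94-fold higher in SI, and Cldn7, the claudin with most reads, lay near the limit at 530 RPKM and 176 RPKM without being called.

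Oxidative defence, conjugation and signalling genes again split in both directions. Of 9 oxidases and peroxide-removing enzymes, catalase (Cat) and the nitric oxide synthase Nos2 were called higher in SI, with 583 and 125 reads in SI and 206 and 8 in colon. The superoxide-producing oxidase Nox1 and its activator Noxa1 were called higher in colon, with 4 and 20 reads in SI and 99 and 200 in colon. Of 15 conjugation enzymes, 3 were called higher in each tissue. Ugt2a3, which attaches glucuronic acid, had 261 and 6 reads and was 81.7-fold higher in SI, and the glutathione transferases Gstm3 and Gsta1 were 5.44-fold and 8.64-fold higher there. The sulfotransferases Sult1a1 and Sult1c2 had 8 and 2 reads in SI and 525 and 203 in colon, and Gstm1 was 4.16-fold higher in colon. Of 9 chemokine and receptor genes measured, 2 were called higher in SI, Ccl25 and Ccl5 as given above, and 3 higher in colon. The 3 were Ccl6, Cxcl12 and Cxcl13, with 202, 45 and 2 reads in SI and 1176, 382 and 39 in colon. In the polyadenylated pair 3 of the 9 were called higher in SI and 0 higher in colon. Among 16 immediate early genes, Zfp36 and Fos were 4.55-fold and 3.66-fold higher in SI and Nr4a1 had 3 and 68 reads. Of 14 genes induced by interferon, only the helicase Ddx60 was called, 3.93-fold higher in SI, and of 9 myeloid genes only Cd14, with 10 and 108 reads, higher in colon.

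**Figure D3:**
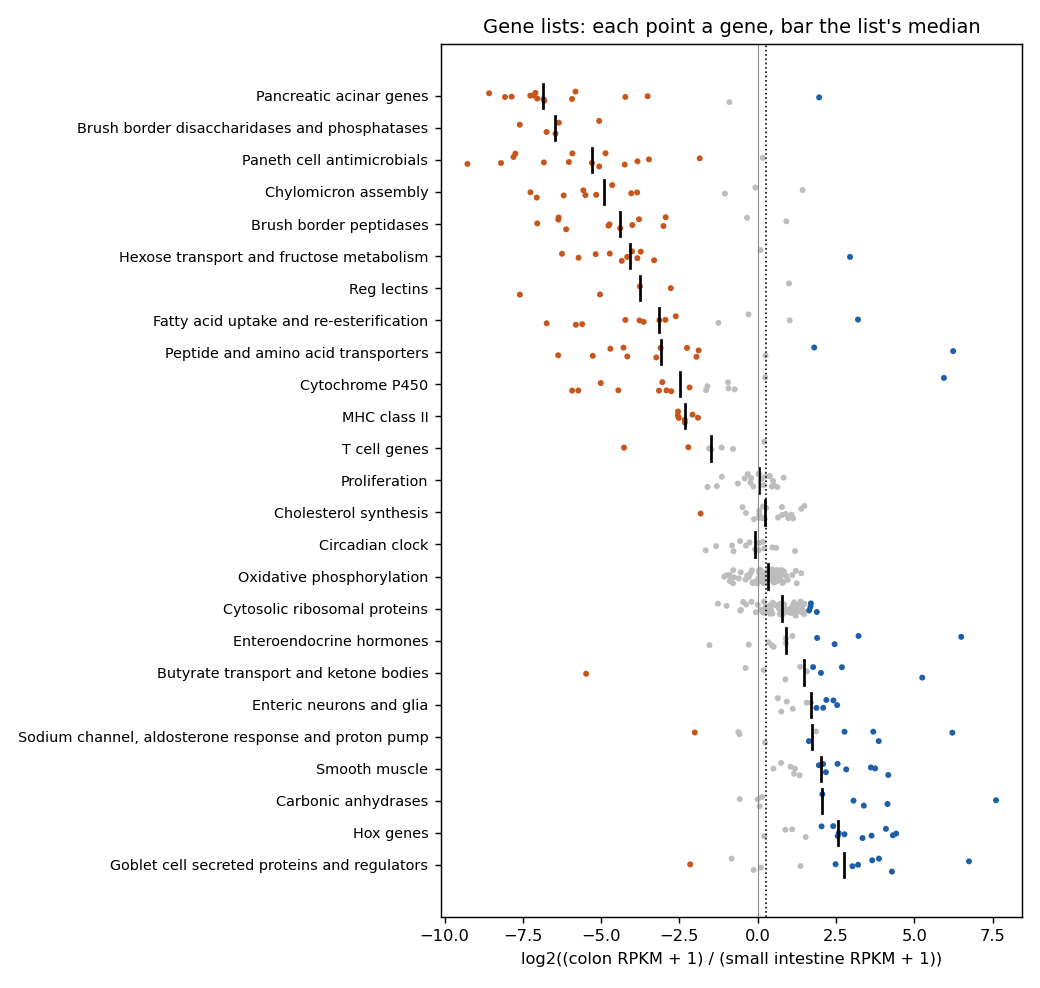
Log2 ratio of colon to small intestine, after adding 1 RPKM to both, for the measured members of 25 of the gene lists. Orange points were called higher in small intestine, blue points higher in colon and grey points neither, the bar marks the median of a list, and the dotted line is the median of 0.26 over all genes measured. Medians run from -6.85 for pancreatic acinar genes to 2.75 for goblet cell genes, while proliferation, clock and oxidative phosphorylation genes lie near the dotted line.

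Transcription factors of regional identity differed in both directions, with 4 of 11 called higher in SI and 2 higher in colon. Gata4, a factor of the proximal intestine, had 244 reads in SI and 4 in colon, 115-fold higher in SI with an interval of 44.2 to 424. Its relative Gata5 had 171 and 12 reads, and the homeobox factor Onecut2 had 334 and 4. Hnf4g was 7.61-fold higher in SI, whereas its relative Hnf4a was even at 301 RPKM and 326 RPKM. The homeobox gene Cdx1 was 4.49-fold higher in colon, with 201 and 1695 reads. Cdx2 was not called and was 2.21-fold higher in SI, while in the polyadenylated pair it was called higher in colon, with 13.2 RPKM and 48.6 RPKM.

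Hox genes, whose order on the chromosome follows their order of use along the body axis, were higher in colon wherever a call was made. Of 39 found, 14 had enough reads, and 10 of these were called higher in colon and none in SI, with a median log2 ratio of 2.57, or 5.23 when 0.1 RPKM is added in place of 1 RPKM. Only Hoxb5, with 12 reads, had more than 8 reads in SI, so that the measured genes passed the minimum of reads through the colon library, and their count does not speak for the Hox genes that were not measured. Hoxb9 had 8 reads in SI and 463 in colon, a 30.8-fold difference with an interval of 15.5 to 71.8. Hoxd13 had 1 and 160 reads, Hoxb6 1 and 58, and Hoxa10 and Hoxb13 had none in SI and 115 and 86 in colon, at least 20.4-fold and 15.3-fold higher. Summed over all found, the 23 genes of groups 1 to 8 had 59 reads in SI and 314 in colon, and the 16 genes of groups 9 to 13 had 13 and 973.

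**Figure D4:**
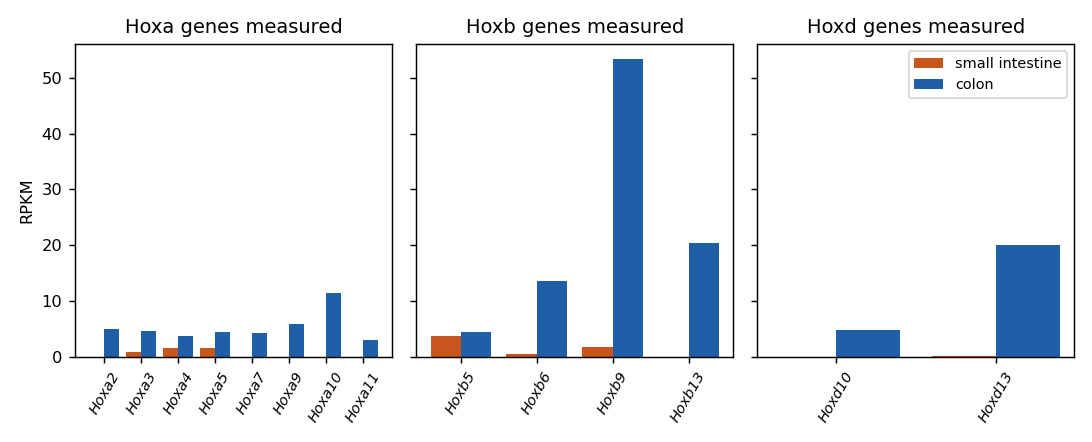
RPKM in small intestine and colon of the 14 Hox genes with at least 20 reads over both libraries, by cluster and in the order of their numbers. Hoxb9, Hoxb13 and Hoxd13 have the tallest colon bars at 53.4, 20.4 and 20.1 RPKM, and no bar of small intestine exceeds 3.70 RPKM.

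Genes of stem cells and Wnt targets were called higher in SI in 2 and higher in colon in 3 of 17. Olfm4, a secreted marker of small intestinal stem cells, had 758 reads in SI and 12 in colon, 119-fold higher in SI. Axin2, a feedback inhibitor of Wnt signalling, was 5.53-fold higher in SI, and Prom1 and Cd44, membrane proteins of crypt cells, were 9.66-fold and 3.60-fold higher in colon, as was the ephrin receptor Ephb3, 4.92-fold. None of 21 genes of proliferation was called in either direction.

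Smooth muscle genes were called higher in the colon library, and some nerve genes were. Of 14 smooth muscle genes, 8 were called higher in colon and none in SI, with a median log2 ratio of 2.02 and a summed level of 483 RPKM in SI and 3225 RPKM in colon. In the polyadenylated pair 9 of the 14 were called higher in colon. The actins Actg2 and Acta2 were 13.7-fold and 7.17-fold higher in colon, Cnn1 18.8-fold and Des 5.96-fold, whereas the myosin Myh11, with 42.1 RPKM and 88.0 RPKM, was among the 6 not called. Of 11 genes of enteric neurons and glia, 5 were called higher in colon, with a median of 1.70, among them the neuropeptide gene Vip with 39 reads in SI and 448 in colon. The other 4 were Stmn2, Tubb3, Uchl1 and Prph, of the neuronal cytoskeleton and cytoplasm, with 2 to 12 reads in SI and 46 to 99 in colon, so that they were measured through the colon library. None of the 11 was called in the polyadenylated pair, where their median was 0.78. Fibroblast genes were called higher in colon in 2 of 11, Dcn with 80 and 880 reads and Lum with 16 and 185, both matrix proteoglycans. The 5 fat cell genes measured had a median log2 ratio of 1.45. Of these, the protease Cfd was called higher in colon, with 20 and 374 reads. The lipase Lipe was called higher in SI, with 140 and 65, and 3 were not called. In the polyadenylated pair 3 of the 5 were called higher in colon and none in SI. Of 8 Toll-like receptors measured, which sense microbial products, 3 were called higher in colon and 5 were not called. The 3 were Tlr1, Tlr2 and Tlr4, with 16, 6 and 1 reads in SI and 253, 247 and 164 in colon, and Tlr4 was not called in the polyadenylated pair. How far the share of muscle and connective tissue enters the values of other genes higher in colon was not tested.

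Several broad groups were called rarely or not at all. None of 15 circadian clock genes and none of 73 genes of oxidative phosphorylation was called, and of 80 cytosolic ribosomal protein genes 4 were called higher in colon, with a median log2 ratio of 0.78. These were Rpl9, Rpl39, Rps29 and Rpl32, which were 3.25-fold, 3.70-fold, 3.13-fold and 3.27-fold higher in colon. Among keratins of simple epithelia, Krt20, of the most differentiated cells, was 6.17-fold higher in SI, while Krt8, Krt19 and Krt18 had 4142, 2225 and 257 reads in SI and 15604, 11657 and 1199 in colon and were not called. The Y-linked genes Uty, Ddx3y, Kdm5d and Eif2s3y had 128, 85, 107 and 40 reads in SI and 341, 170, 131 and 143 in colon, and none was called, whereas all 4 were called higher in colon in the polyadenylated pair. Xist, the RNA of the inactive X chromosome, had 7 reads in SI and 3 in colon and was not measured here, and in the polyadenylated pair it was called higher in SI with a log2 ratio of -2.23. Of 7 long and structural noncoding RNAs, with a median log2 ratio of 0.87, only Rian was called, higher in colon with 6 and 182 reads. The members with most reads, Malat1 and Gas5, the latter a host gene of snoRNAs, were not called, with 12679 and 9789 reads in SI and 12366 and 14454 in colon. These read counts are not scaled for the larger colon library. Of the Gas5 reads, 3812 in SI and 8645 in colon began at 1 start point.

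The markers chosen for each tissue were called in the direction of the tissue labels. They are also members of the gene lists, which were chosen with earlier results of these data known. The outcome was therefore likely in advance and is no independent check of the labels. All 7 small intestine markers (Lct, Sis, Slc2a2, Apoa4, Fabp1, Fabp2 and Gata4) were called higher in SI and all 7 colon markers, among them Car1, Slc26a3, Aqp8, Hoxb13, Hoxd13 and Scnn1b, higher in colon. Summed over the markers, the levels were 11094 and 521 RPKM for the first list and 93.0 and 7286 RPKM for the second, in SI and colon. None of the small intestine markers was at 0 reads in colon. Of the colon markers 2, Hoxb13 and Scnn1b, were at 0 in SI and were measured through the colon library alone.

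The same tissues in the polyadenylated pair gave the same call for 307 of the 590 genes higher in SI (52.0%) and 306 of the 852 higher in colon (35.9%). Seen from the other side, of the measured genes called in the polyadenylated pair, 307 of 403 (76.2%) and 306 of 459 (66.7%) were also called here. Opposite calls were found for 14 genes higher in SI here and for none higher in colon, and 12 of the 14 belong to the acinar list. The protocols and read depths differ between the pairs, and so do the Y-linked genes in the SI libraries. In the polyadenylated pair Ddx3y stood at 0.184 RPKM in SI and 8.74 RPKM in colon, and Uty, Kdm5d and Eif2s3y had no read in SI. Tissue and the sex of the mice therefore cannot be told apart in that pair, nor can these sources of difference between the pairs. The study writes of the same individuals for both tissues, which these Y-linked values do not bear out for the polyadenylated pair. The next 5 genes were chosen after their values were seen, for their large differences in the polyadenylated pair, so no general statement on the size of the folds follows from them. Lct, 131-fold here, was 3810-fold higher in SI in the polyadenylated pair, where colon had 0.0265 RPKM, and Slc2a2, 113-fold here, was 3450-fold higher, with a counting interval of 1180 to 16731 from 3 reads in colon. Apoa4 was 74.6-fold and 4622-fold higher in the same order. Aqp8, 204-fold higher in colon here, was 11900-fold higher there, with an interval of 4072 to 57709 from 3 reads in SI, and Car1 had 68 reads in SI here but none in the deeper SI library of the polyadenylated pair. The order was the other way round for Akp3, 367-fold higher in SI here and 13.2-fold there, where 12 reads in SI and 1 in colon gave an interval of 1.95 to 564. Other folds lay close in some genes and apart in others, as Fabp2 was 8.85-fold and 8.50-fold and Guca2b 50.1-fold and 53.8-fold higher in SI, but Hnf4g 7.61-fold and 33.4-fold and Reg3g 13.7-fold and 93.1-fold. Clca3 was 9.21-fold higher in colon here and 2.61-fold there. Crip1 was called higher in SI here at 3.94-fold, and in the polyadenylated pair it stood 2.08-fold higher and was not called.

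**Figure D5:**
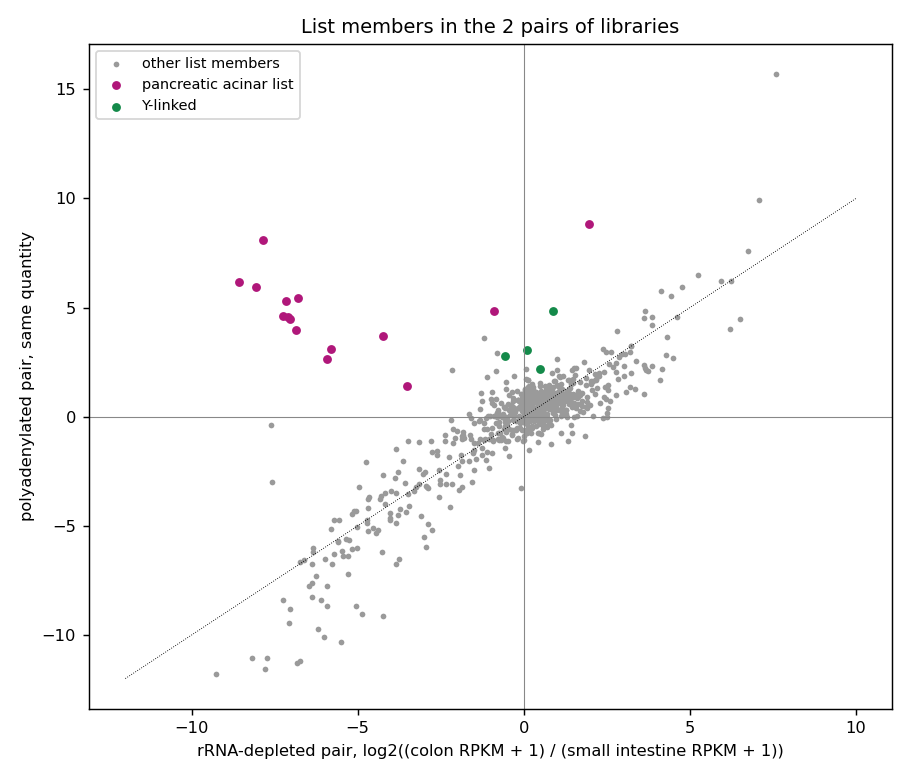
Log2 ratio of colon to small intestine after adding 1 RPKM, in the rRNA-depleted pair (x axis) and in the polyadenylated pair (y axis), for the members of all gene lists that were measured in the rRNA-depleted pair. Pancreatic acinar genes lie mostly in the upper left, higher in small intestine in the first pair and in colon in the second, the 4 Y-linked genes lie above the line of equal ratios, and the dotted line marks equal ratios.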

How the data were processed

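Per the file headers, the authors deposited reads matched over 35 colors, allowing 3 color mismatches at most, against merged RefSeq exon blocks and exon junctions of mm9, without normalization, and reports whose unique read and start point counts equal those found here. Each uniquely placed read was assigned to the exon block of its start (tolerance 3 bases), and blocks to genes by GENCODE M1. Junction reads (0.754% and 0.820%) and reads on blocks without a gene (0.133% and 0.150%) were left out, and 736 genes shared at least 15% of exonic bases with another gene. RPKM used sense reads without Lars2, but both strands in the polyadenylated pair, whose protocol does not keep the strand. Ratios have Clopper-Pearson and levels exact Poisson intervals (95%), and 3 reads stood for a count of 0, in Python 3.11.15 with SciPy 1.17.1. The call was also run on simulated counts with counting error only. These hold no piled reads and no differences between mice, so the run says nothing of errors from those sources. The comparison and the 54 gene lists were chosen with earlier results of these data known. Named genes were drawn from the 10 genes leading by RPKM and by penalised ratio per tissue, genes the study names, markers, up to 5 members of a list by reads, every member of lists of up to 8, and members called against most of their list, and not all of these are given. Members of counts of 5 or fewer outside this rule were named after their values were seen. Of the members sought, 12 were not matched. Alternatives were other totals, strands, mismatches, start points, penalties, filters, folds, pseudocounts, thinning of colon, and removal of genes. Some items are not reported here.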

Additional observations from a re-analysis of the deposited data

Results flagged for a closer look

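Between the 2 pairs of libraries the tissue difference ran in opposite directions for 14 genes, called higher in SI after rRNA depletion and higher in colon in the polyadenylated pair. Whether the pairs differ was not tested, since each rests on 1 library per tissue. They include Cel, Cela2a, Cela3b, Cpa1, Cpb1, Ctrb1, Ctrl, Pnlip, Pnliprp1, Prss2 and Try5 of the pancreatic acinar list, together with 2210010C04Rik and Tff2, and several of them were named here after their values were seen. The median log2 ratio of the acinar list was -6.85 in the rRNA-depleted pair and 4.64 in the polyadenylated pair.

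Reads outside the main measurement were also counted. Antisense reads on genes numbered 29583 in SI and 45179 in colon, and 130 genes in SI and 144 in colon had at least 20 antisense reads and more antisense than sense reads. The reads on Lars2, left out of the totals, numbered 277915 in SI and 186259 in colon, of which 57788 and 15284 began at 1 start point.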

How the results depend on the processing

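The counts of 590 genes higher in SI and 852 higher in colon stayed within 1.5 times under 12 of the 14 alternatives planned for them and under both added after seeing the data, which left out acinar genes or genes with over 50% of reads at 1 start point. With a penalty of 0.1 RPKM the count for colon was 1446, and with a fold of 5 the counts were 330 and 343. Size factors from the median of ratios gave 756 and 636, so that the share higher in SI rose from 40.9% to 54.3% of genes called. Single ratios were recomputed for 551 genes only, a wider set than the naming rule gives. It holds the leading genes, genes the study names and all measured list members except ribosomal protein, oxidative phosphorylation and histone genes. The ratio left its counting interval in 238 of them with start points, 146 with size factors and 119 with at most 10 reads per start point. It did so in 49 with at most 1 mismatch and in 7 with both strands. No called gene among the 551 changed its sign. No list median beyond 3-fold changed its sign either, while medians near 0 did, at most 6 of 54 of them and with start points in place of reads. A call needs at least 3-fold, so a change of sign in called genes was unlikely in advance. Of the 590 and 852 calls, 414 and 605 were kept with start points, and 590 and 636 with size factors. Start points moved the medians of the disaccharidases and phosphatases to -4.94 and of MHC class II to -1.85, more than the SD of their members, and the ratio of the red blood cell gene measured from 1.35 to 0.21. A pseudocount of 0.1 RPKM moved Hox genes to 5.23 and enteric neurons and glia to 2.41. The causes were not tested. No paired analysis was possible because there is 1 library per tissue, and leaving out a library leaves no comparison. SI had fewer reads than colon, so genes low in SI carry wider intervals.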
